A study of Mus musculus with 6 samples.

Results

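The genes described here encode the machinery that turns a mitochondrial death signal into caspase activity and the proteins that hold it back: Apaf1, Casp9, Casp6, Cycs, Diablo, Xiap, Birc2 and Birc3. They were chosen by name, and every non-control probe of the array that carries one of these symbols was taken, which gave 12 probes of 8 genes, among 55681 probes with 34797 gene names on the array. RNA came from spleens of B10.BALB-16.C2A mice, described as congenic. The 3 unirradiated arrays were from resting mice that had received 0 cGy, and the 3 irradiated arrays were from mice taken 24 h after 900 cGy of total body irradiation with X-rays. Each array held RNA pooled from 3 mice, isolated from homogenised splenocytes, and the strain was the same in both groups. Age and sex are not given in the sources used here. The comparison asks how transcripts of the spleen differ a day after irradiation of the whole animal. The spread behind each p-value is that among pools of mice, not among single mice.

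In the mitochondrial pathway of apoptosis, cytochrome c leaves the mitochondria and binds Apaf1, which assembles into a wheel-shaped complex, the apoptosome. The apoptosome recruits and activates caspase 9, which cleaves the executioner caspases. Inhibitor of apoptosis proteins (IAPs) act against this: Xiap binds and blocks caspases directly, whereas Birc2 and Birc3 (cIAP1 and cIAP2) are ubiquitin ligases that mainly act in tumour necrosis factor receptor signalling. Diablo (Smac), released from mitochondria with cytochrome c, binds IAPs and relieves the block. Much of this control acts on proteins, which the arrays do not measure. Lymphocytes of the spleen are known to be very sensitive to ionising radiation.

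Birc2 and Birc3 are adjacent genes, with 0 annotated genes between them in RefSeq (GRCm38.p6), and they differed in the direction of their change. Their probes are shown first for that reason, with those of Diablo and Cycs, whose several probes lie at separate places in the gene. Each line gives the first 30 of the 60 bases of a probe, 5′ to 3′, in lower case since no base is singled out. "Upstream" and "downstream" order the probes of a gene along its transcript.
Birc2: gaagaatggtctgaaagtattgttggacat
Birc3 upstream: acagataatgcccagctaatagaacagggt
Birc3 downstream: agaactacaggaccgtcagtgacctcgtta
Diablo upstream: aacgctgtttctcagaattgataaaaccat
Diablo downstream: cacacccttaagttcagtagctgtttaact
Cycs upstream: atgaatggctagcaatgtttttgttggaca
Cycs middle: aattgtccttaaatacccactcagaaacac
Cycs downstream: cgttacacttacatattcattttaaccact

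In the positions given on mm9, the Birc2 probe covers chr9:7818688-7818747 on the minus strand. The Birc3 probes cover chr9:7856162-7856221 (upstream) and chr9:7854409-7854468 (downstream), also on the minus strand. The start of the nearer one lies 35721 bases from that of the Birc2 probe. The Diablo probes lie on the minus strand at chr5:123973293-123973352 (upstream) and chr5:123962170-123962229 (downstream). The Cycs probes lie on the minus strand at chr6:50515092-50515151, chr6:50514522-50514581 and chr6:50512563-50512622, in the order in which they are listed. The other members have 1 probe each, for Apaf1 at chr10:90452580-90452639 (minus), for Casp9 at chr4:141371773-141371832 (plus), for Casp6 at chr3:129616453-129616512 (plus) and for Xiap at chrX:39462720-39462779 (plus). Whether a probe lies in coding sequence was not analysed here, because no annotation of mm9 was used.

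The irradiated spleens differed widely from the unirradiated ones. Of 39676 probes tested, 57.5% passed the threshold of an adjusted p under 0.05, 26.4% being higher and 31.0% lower. All 7 B cell markers and all 7 T cell markers were lower, with mean log2 differences of -2.99 and -2.30, and remained well above background on every array. The 6 measured markers of erythroid precursors were lower by a mean of -6.56, and 4 of them were still well above background on all irradiated arrays. The 7 macrophage markers were higher by a mean of 2.29. All 6 dividing-cell markers that passed the filter were lower, the mean over the list of 7 being -2.52. Markers of endothelium (5 of 6) and fibroblasts (5 of 5) were higher, with mean differences of 1.13 and 1.42. Exocrine pancreas markers were higher in 6 of 7 cases, and their mean level ranged from -4.91 to 3.58 on the unirradiated arrays and from 6.92 to 7.25 on the irradiated ones. Neutrophil markers split, 2 higher and 2 lower of 7. Unirradiated replicate 3 stood apart from its group in the erythroid markers, with a mean level of 2.90 against 4.48 and 4.16 on replicates 1 and 2. In the exocrine pancreas markers it was unirradiated replicate 1, at -4.91 against 3.58 and 1.20 on replicates 2 and 3. The exocrine pancreas list marks another organ than the spleen, and where its signal came from was not tested. In RNA from a mixture of cells, fewer cells of a type and less RNA per cell cannot be told apart. The part of all these shifts in the results that follow was not tested.

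Of the 11 member probes that were well above background, 1 was higher after irradiation (Birc2), 4 were lower (both probes of Diablo and of Birc3) and 6 did not pass the threshold. The share called was 45.5%, beside 57.5% of all probes. The largest change was 1.67-fold. The median log2 change of the member probes was -0.22 against -0.07 for all probes, and the median size was 0.30 against 0.48. In 9 of the 11 the groups did not overlap, where 65.7% of all probes did not overlap. A probe's level is its log2 signal after division by the 75th percentile of that array's signals. A change is the irradiated mean minus the unirradiated mean, with its standard error (SE) from the limma fit and a p adjusted over all probes by the Benjamini-Hochberg method.

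**Figure D1:**
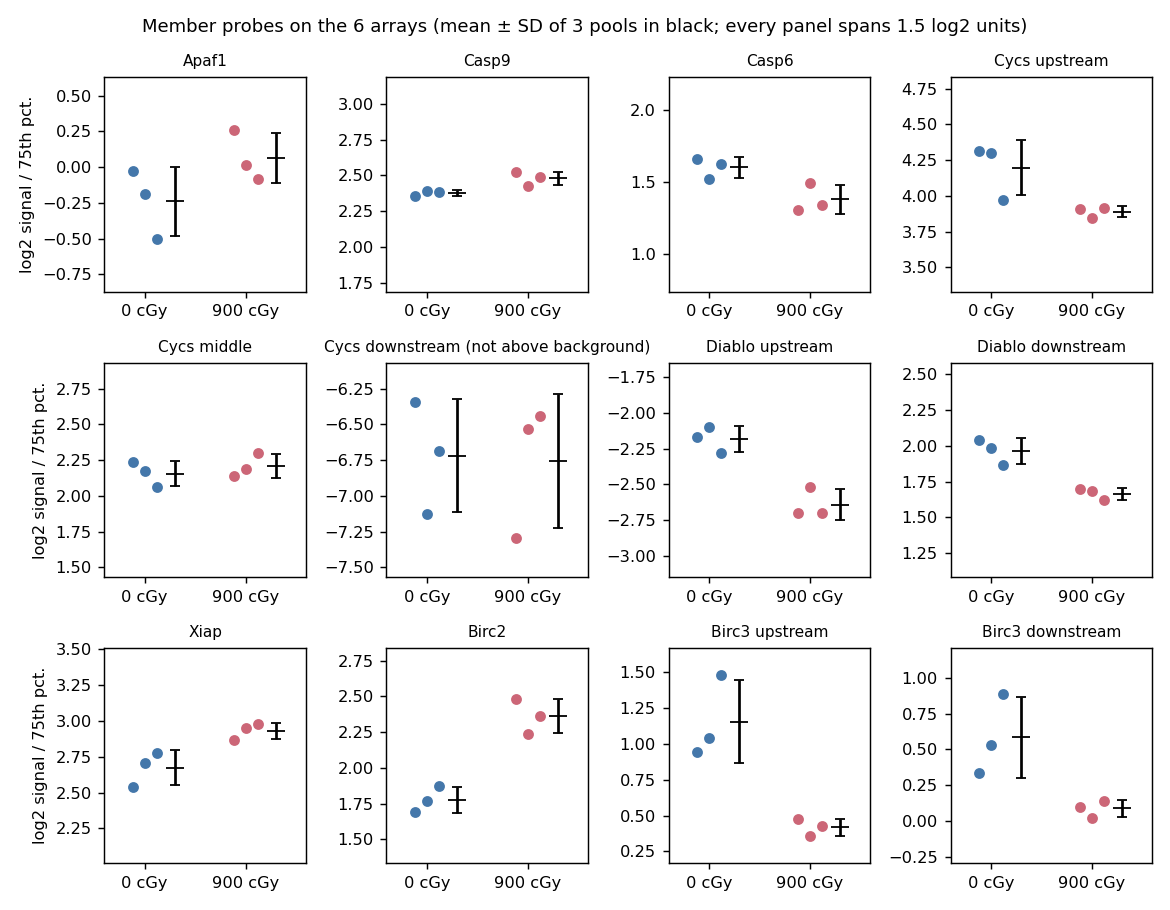
Log2 signal over the array's 75th percentile of each member probe (vertical axes) on the 3 unirradiated and the 3 irradiated arrays (coloured points, with the group mean ± SD in black). Birc2 is higher on all 3 irradiated arrays, the probes of Birc3 and Diablo are lower on all 3, and the points of Apaf1, of the middle Cycs probe and of the downstream Cycs probe, which is not well above background, overlap.

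Apaf1, the scaffold of the apoptosome, had levels of -0.03, -0.19 and -0.50 on the unirradiated arrays and 0.26, 0.02 and -0.08 on the irradiated arrays. The groups overlapped, the lowest irradiated value lying below the highest unirradiated one. The change was 0.30 ± 0.15 (SE), with a 95% confidence interval from -0.07 to 0.68 and an adjusted p of 0.139. It was 0.17 without unirradiated replicate 3, 0.498 with the slide row as a block and 0.056 with spike-in scaling, and it did not pass under any of these.

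Casp9, the initiator caspase that the apoptosome activates, had levels of 2.35, 2.39 and 2.38 on the unirradiated and 2.52, 2.43 and 2.49 on the irradiated arrays. All irradiated arrays lay above all unirradiated ones, but by little. The change was 0.10 ± 0.08, with an interval from -0.09 to 0.29 and an adjusted p of 0.300. Its sign depended on the scaling, being -0.14 when arrays were scaled to the spike-in controls.

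Cycs encodes somatic cytochrome c, the carrier of electrons between respiratory complexes that also triggers the apoptosome, and it has 3 probes. The upstream probe had levels of 4.32, 4.30 and 3.97 on the unirradiated arrays and 3.91, 3.84 and 3.91 on the irradiated ones. The irradiated values lay below the unirradiated values, closest to unirradiated replicate 3. The change was -0.31 ± 0.12 with an adjusted p of 0.0607. Without unirradiated replicate 3 it was -0.42 and passed the threshold, with an adjusted p of 0.00524. It also passed with spike-in scaling (-0.56, adjusted p = 0.0184).

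The middle Cycs probe read 2.24, 2.17 and 2.06 on the unirradiated and 2.14, 2.19 and 2.30 on the irradiated arrays. These groups overlapped, and the change was 0.05 ± 0.09 with an adjusted p of 0.655. Its sign turned with spike-in scaling (-0.19) and with the slide row as a block (-0.02). The downstream probe was not well above background on any of the 6 arrays and was not tested. The upstream and middle probes start 570 bases apart, and their changes differed by -0.36. In a test of each probe against the others of its gene (limma's diffSplice) the adjusted p of that difference was 0.127, while 15.7% of probes of genes with several probes passed. Cytochrome c has processed pseudogenes in mouse, so signal from near-identical copies makes these readings uncertain.

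Casp6, an executioner caspase known to cleave nuclear lamins, had levels of 1.66, 1.52 and 1.62 on the unirradiated arrays and 1.30, 1.49 and 1.34 on the irradiated ones. The groups were separate by a small margin, set by unirradiated replicate 2 and irradiated replicate 2. The change was -0.22 ± 0.09, with an interval from -0.45 to 0.00 and an adjusted p of 0.0840. With spike-in scaling it was -0.47 and passed the threshold, with an adjusted p of 0.0294.

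Diablo, the antagonist of IAPs, was lower after irradiation by both of its probes. The downstream probe had levels of 2.04, 1.98 and 1.86 on the unirradiated and 1.70, 1.68 and 1.62 on the irradiated arrays. Every irradiated array lay below every unirradiated array, and the change was -0.30 ± 0.09 with an adjusted p of 0.0258. This call was lost when any array other than unirradiated replicate 3 was left out, the adjusted p then lying between 0.0575 and 0.101. Irradiated replicates 2 and 3 lay in another row of the slide than the other 4 arrays. With the slide row as a block the change therefore rests on irradiated replicate 1 alone. It was then -0.27, with an adjusted p of 0.168. With spike-in scaling it was -0.55 and kept its call.

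The upstream Diablo probe had levels of -2.17, -2.10 and -2.28 on the unirradiated arrays and -2.70, -2.52 and -2.70 on the irradiated ones. The groups were again separate. The change was -0.46 ± 0.10, a 1.37-fold lower signal, with an adjusted p of 0.00757. The probes start 11123 bases apart, and their changes were not distinguished by diffSplice (adjusted p = 0.462).

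Xiap, the IAP that binds and inhibits caspases directly, had levels of 2.54, 2.71 and 2.77 on the unirradiated and 2.87, 2.95 and 2.98 on the irradiated arrays. The irradiated arrays all lay above the unirradiated ones. The change was 0.26 ± 0.10, with an interval from 0.02 to 0.49, and it missed the threshold with an adjusted p of 0.0591. Without unirradiated replicate 3 it was 0.31 and passed, with an adjusted p of 0.0323. When arrays were scaled to the brighter spike-in controls, it was -0.01.

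Birc2 was the only member called higher. Its levels were 1.69, 1.77 and 1.87 on the unirradiated arrays and 2.48, 2.24 and 2.36 on the irradiated arrays. The groups were well separate, and the change was 0.58 ± 0.10, a 1.497-fold higher signal, with an adjusted p of 0.00312. With spike-in scaling the change was 0.33 and the call was lost (adjusted p = 0.117), beside 17.9% of all probes higher and 40.8% lower under that scaling.

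Birc3, its neighbour and paralogue and a known target of NF-kB, was lower by both probes. The upstream probe had levels of 0.94, 1.04 and 1.48 on the unirradiated and 0.47, 0.35 and 0.42 on the irradiated arrays. The irradiated values were close together and all below the unirradiated ones, of which replicate 3 was the highest. The change was -0.74 ± 0.15, a 1.67-fold lower signal, with an adjusted p of 0.00631. With the slide row as a block, which leaves irradiated replicate 1 alone, the change was -0.68 with an adjusted p of 0.0618.

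The downstream Birc3 probe had levels of 0.33, 0.53 and 0.89 on the unirradiated arrays and 0.10, 0.02 and 0.14 on the irradiated ones. The change was -0.50 ± 0.15, with an adjusted p of 0.0286. That call was lost when any irradiated array or unirradiated replicate 2 was left out, with adjusted p-values from 0.0629 to 0.0869, and with the slide row as a block (adjusted p = 0.143). The changes of the 2 probes were not distinguished by diffSplice (adjusted p = 0.573). The B cell markers had mean levels of 4.24, 4.39 and 4.66 on unirradiated replicates 1 to 3. On the irradiated arrays they lay between 1.32 and 1.498. The T cell, macrophage, endothelium and fibroblast means were also highest on replicate 3 of the unirradiated group, as were Birc2 and Xiap. A link of Birc3 to any of these lists was not tested.

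**Figure D2:**
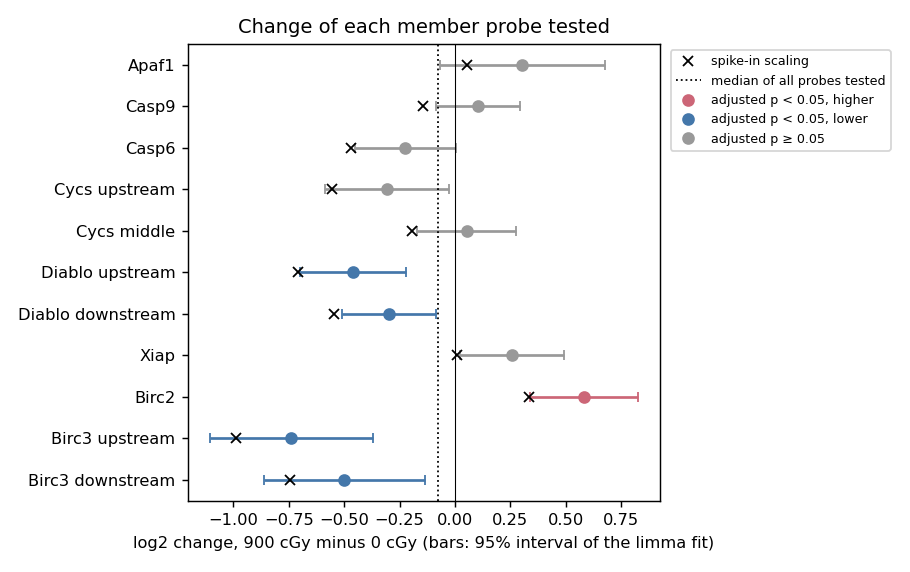
Log2 change of each tested member probe, 900 cGy minus 0 cGy (horizontal axis), with its 95% confidence interval from the limma fit; colours mark an adjusted p under 0.05. Birc2 lies at 0.58, the probes of Birc3 at -0.74 and -0.50 and those of Diablo at -0.46 and -0.30, and the other 6 probes did not pass.

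Members with opposing or linked roles were then compared directly, by taking the difference of their log2 levels on each array, with the probe of highest mean for each gene. The offset between 2 probes has no meaning, so only its shift between groups is read. With 3 arrays against 3, a two-sided exact permutation test cannot give less than 0.1, and no pair could pass. For Birc2 minus Birc3 the difference was 0.75, 0.73 and 0.39 on the unirradiated arrays and 2.005, 1.88 and 1.94 on the irradiated ones. The shift was 1.32, or 2.50-fold, and the groups lay far apart (exact p = 0.1, adjusted over the 5 pairs 0.125).

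For Xiap minus Diablo, the inhibitor and its antagonist, the difference was 0.49, 0.73 and 0.91 on the unirradiated and 1.17, 1.27 and 1.36 on the irradiated arrays. The shift of 0.56 separated the groups (exact p = 0.1, adjusted 0.125). Apaf1 minus Cycs, by the upstream Cycs probe, shifted by 0.61 and Casp9 minus Casp6 by 0.33, both with separate groups and the same exact p of 0.1 (adjusted 0.125). For Apaf1 minus Casp9, the scaffold and the caspase it recruits, the groups overlapped and the shift was 0.20 (exact p = 0.4), or 0.064 without unirradiated replicate 3 and 0.32 without unirradiated replicate 1. With the middle Cycs probe in place of the upstream one, Apaf1 minus Cycs shifted by 0.25 and the groups overlapped (exact p = 0.3). With the other probe of Birc3 or Diablo the groups stayed separate, with shifts of 1.08 and 0.72. These shifts do not depend on which single factor scales an array.

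**Figure D3:**
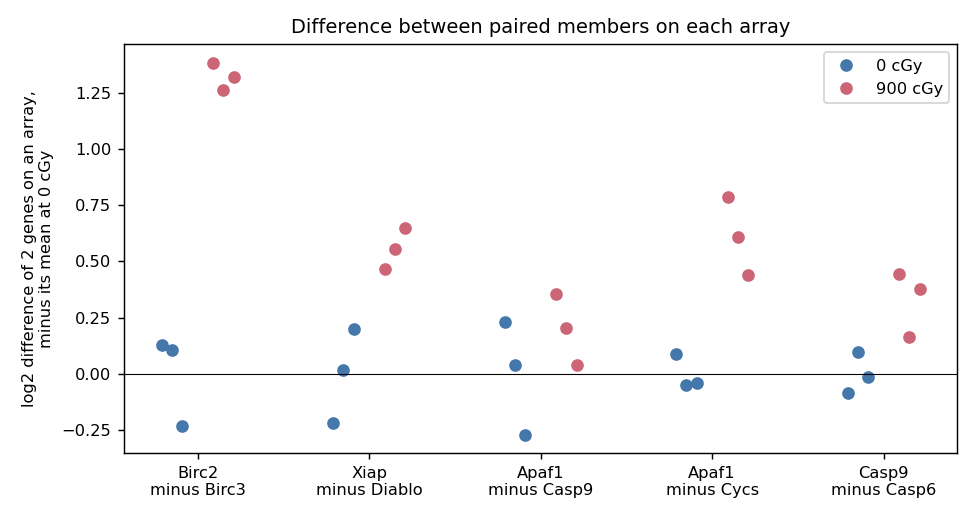
Difference of log2 levels between 2 members on each array, minus its mean over the unirradiated arrays (vertical axis), for 5 pairs. Points are the 3 unirradiated and 3 irradiated arrays. Before its unirradiated mean of 0.62 is taken off, Birc2 minus Birc3 moves from between 0.39 and 0.75 to between 1.88 and 2.005. Only Apaf1 minus Casp9 has overlapping groups.

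The sequence before the start of transcription differs between the neighbouring genes Birc2 and Birc3. Shown are the 100 bases upstream of the RefSeq start (GRCm38.p6), 5′ to 3′ on the minus strand, with each CG pair in capitals, for Birc2 at chr9:7837058-7837157 and for Birc3 at chr9:7873171-7873270.
Birc2: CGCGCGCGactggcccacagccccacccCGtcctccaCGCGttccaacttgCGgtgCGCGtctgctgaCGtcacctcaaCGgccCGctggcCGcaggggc
Birc3: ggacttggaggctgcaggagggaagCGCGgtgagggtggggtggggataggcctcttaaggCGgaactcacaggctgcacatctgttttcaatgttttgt

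Over 250 bases upstream, the Birc2 window held 31 CG pairs and the Birc3 window 6, beside a median of 6 over 32851 promoter windows. Their GC contents were 68.4% and 43.6%. A second Birc2 window, for another start, held 19 CG pairs. Apaf1 had 42 CG pairs, Diablo 30, Casp9 25, Cycs 23 and Casp6 11, and the 3 windows of Xiap held 13, 1 and 1.

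The 250 bases were searched on both strands for 6 motifs, which were chosen after the promoter sequences had been read. The full cAMP response element TGACGTCA was in 2 of the 11 member windows, beside 1.55% of all windows. It began 35 bases upstream in Birc2 and 169 bases upstream in Cycs. Its part TGACG, which overlaps the full element, was in 5 of the 11 member windows, beside 17.8% of all windows. Those windows belong to Cycs, Diablo, Xiap and Birc2. A loose NF-kB pattern was also searched, GGG and CC separated by 5 unconstrained bases and wider than the consensus. It was in 7 of the 11 member windows, beside 45.8% of all windows, and in every member gene but Birc2. In Birc3 it began 57 bases upstream. The NRF1 motif (0.782% of windows), the core of the interferon-stimulated response element (paired GAAA with 2 unconstrained bases between, 2.98%) and the p53 half-site (7.13%) were in no member window. With 6 motifs and 11 windows some matches occur by composition alone, and the shares over all windows are not matched for CG pairs. A match here is a description of letters. The motifs found in no member window are uncommon over all windows, so their absence from these 250 bases is not read as a trait of the members.

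Around the members, 47 genes in 7 lists were measured, of which 13 were higher, 17 were lower and 17 did not pass, with a median log2 change of -0.02. Of all probes tested, 26.4% were higher and 31.0% lower. With 1 probe per gene over the whole array, 7539 of 26678 were higher and 8268 lower. The counts of each list below stand beside these, and no list was tested as a set. Of 4 apoptotic caspases outside the members, 2 were higher and 2 were lower. The lower ones were Casp2, which had levels of 3.79, 3.999 and 3.95 on the unirradiated and 2.82, 3.02 and 2.99 on the irradiated arrays, and Casp8, the initiator caspase of death receptors. Casp2 changed by -0.97 ± 0.10 and Casp8 by -0.28 ± 0.09.

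Of 7 other genes with the BIR domain that defines IAPs, 2 were higher, 2 lower and 3 did not pass. Birc5 (survivin), which acts in chromosome segregation as well as in survival, was lower by 2.91 ± 0.41 on the log2 scale (log2 change -2.91, 7.54-fold). Its levels were 5.76, 5.56 and 4.12 on the unirradiated and between 2.19 and 2.29 on the irradiated arrays, with unirradiated replicate 3 the lowest of its group. The dividing-cell markers had mean levels of 1.37, 1.12 and -0.02 on the same unirradiated arrays. The erythroid (4.48, 4.16 and 2.90) and neutrophil (4.39, 4.05 and 3.32) means had the same order there. A link of Birc5 to any of these lists was not tested. Naip2 and Naip6, of a family of inflammasome sensors, changed by 1.08 and 0.58. Near-identical Naip copies make the gene-level reading uncertain, and Naip6 lost its call with spike-in scaling.

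Among 6 IAP antagonists and other mitochondrial death factors, 3 were higher, 1 lower and 2 did not pass. Xaf1, a gene named for its association with Xiap, changed by 1.67 ± 0.11. Sept4, which has a splice form that binds Xiap, changed by 1.35 ± 0.10, and Aifm2 by 1.33 ± 0.11. Htra2, another IAP-binding mitochondrial protein, changed by -0.45 with an adjusted p of 0.0613. Of 5 apoptosome regulators 2 were higher, 2 lower and 1 did not pass. Nol3, a caspase recruitment domain protein that inhibits apoptosis, changed by 1.67 ± 0.11. Ndrg1, better known as a stress-responsive gene, changed by 1.14 ± 0.10. Aven, an inhibitor of apoptosome assembly, changed by -0.59 ± 0.08.

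Of 8 caspase substrates and DNA fragmentation factors, 5 were lower and 3 did not pass. Lmnb1, a lamin of the nuclear envelope, changed by -1.83 ± 0.21, Parp1, a DNA damage sensor, by -1.62 ± 0.10, and Dffb, the caspase-activated nuclease, by -1.05 ± 0.09. Of the 9 signalling partners of Birc2 and Birc3, 3 were higher, 1 lower and 5 did not pass. The tumour necrosis factor receptors Tnfrsf1a and Tnfrsf1b changed by 1.44 ± 0.09 and 1.07 ± 0.12. Traf3, the adaptor through which the cIAPs limit non-canonical NF-kB signalling, changed by -0.61 ± 0.11. Of 8 genes of cytochrome c assembly and the respiratory chain, 1 was higher, 4 lower and 3 did not pass. Cyc1, which encodes cytochrome c1, changed by -0.56 ± 0.11, Uqcrc1 by -0.52 ± 0.14 and Cox5a by 0.50 ± 0.11. Cox5a lost its call with spike-in scaling, and Uqcrc1 when irradiated replicate 2 or 3 or unirradiated replicate 2 was left out and with the slide row as a block or slide row 1 alone (changes between -0.79 and -0.40 over all alternatives).

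**Figure D4:**
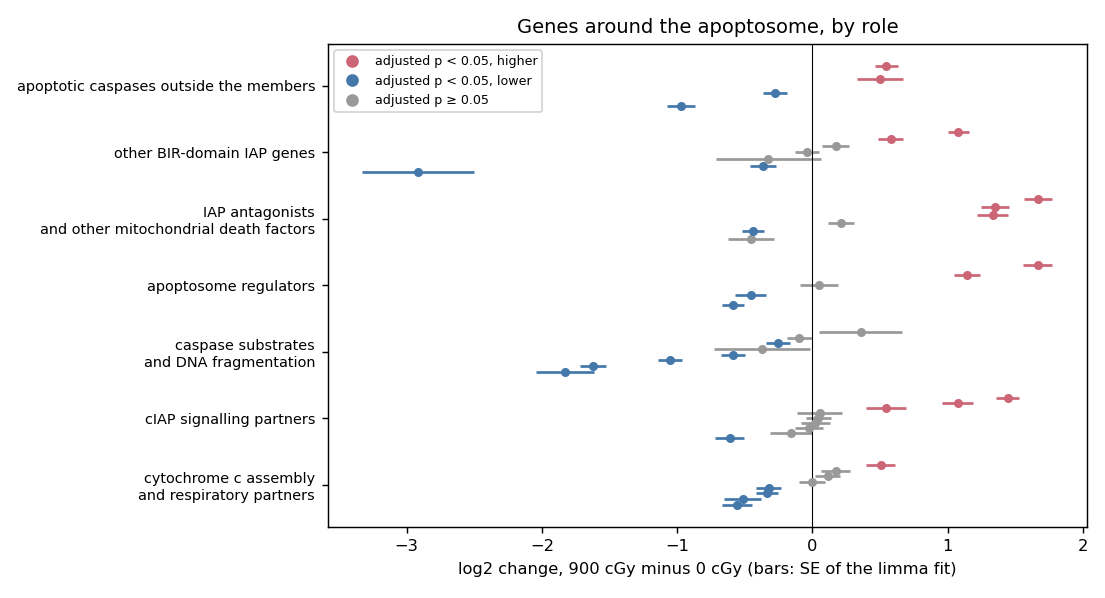
Log2 change, 900 cGy minus 0 cGy (horizontal axis), of the 47 genes of 7 lists around the members, 1 point per gene with its SE, coloured by the result of the test. Birc5 lies farthest to the left at -2.91, and Xaf1 and Nol3 lie farthest to the right at 1.67.

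The likeness of each member to 54 other genes, these 47 and the other members, was ranked by Pearson's r of log2 levels over the 6 arrays. Since both groups enter, r mixes a shared change between groups with shared differences among the arrays of a group. It is given as a description. Apaf1 was most like Cox6c (0.979), and Casp9 most like Birc2 (0.960) and Tnfrsf1b (0.942). Casp6 was most like Dffa (0.891) and Parp1 (0.859), Cycs most like Htra2 (0.978) and Ptma (0.975), and Diablo most like Cyc1 (0.988) and Birc5 (0.987). Xiap was most like Naip6 (0.946) and Ndrg1 (0.914). Birc2 was most like the receptor genes Tnfrsf1b (0.991) and Tnfrsf1a (0.972). Birc3 was most like Casp8 (0.995) and Traf3 (0.969).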

How the data were processed

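Spots were quantified by Agilent Feature Extraction 10.5.1.1 (per the submitters' processing notes). Per the file headers, the deposited intensity values are background-subtracted and detrended within each array, not between arrays. The authors' deposited table of log2 values, matched the scanner values once these were divided by the 75th percentile and each probe's median was subtracted; it served as an alternative. Its column medians were 0.047, -0.0059 and -0.047 (unirradiated) and -0.025, 0.018 and -0.0082 (irradiated).

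Log2 processed intensities were reduced by each array's 75th percentile over 59305 non-control spots, which was 1166, 1152 and 1403 for unirradiated and 1144, 1114 and 1182 for irradiated arrays; between 70.9% and 74.7% of these spots were well above background and none was saturated. Outlier spots (91 to 146 per array) were left out. Probes were kept where every array of 1 or both groups was well above background, and were fitted with limma 3.58.1 in R 4.3.3 (two-sided, Benjamini-Hochberg, threshold 0.05); the fit was tested on simulated data. Precision is limited by there being 6 arrays.

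The members and lists were chosen with earlier results of these data known. Named were all members, in each list the 3 genes past the threshold with the largest change, and the 2 genes most like each member. Results of 2 genes that this rule took are not reported here by name; they stay in the counts. The motifs were chosen after the promoters were read, and the diffSplice test, the brighter spike-in set, the other probe of a gene in the pairs and slide row 1 alone were added after the data were seen. Lists used the probe of highest mean per gene. Promoter sequences and gene order are from RefSeq (GRCm38.p6), where 8 of 8 members were matched; probe positions are on mm9.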

Additional observations from a re-analysis of the deposited data

How the results depend on the processing

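All arrays came from 1 slide and 1 scan. The unirradiated arrays lay in row 1, columns 1, 2 and 3. The irradiated arrays lay in row 1, column 4, and in row 2, columns 1 and 2, so dose followed the order of positions. Row was tried as a block and column was not, and an effect of position beyond the row was not tested. Scaling to spike-in controls moved the median change of all probes from -0.07 to -0.32 and the calls from 10485 higher and 12316 lower to 7091 and 16178 (with the brighter controls 6701 higher). By limma it left 0 member probes higher, and also 0 at an unadjusted p under 0.05, with both sets of controls, 6 member probes lower (the upstream Diablo probe at -0.71) and 8 pathway genes higher. It turned the sign of Casp9 (-0.14, and -0.17 with the brighter controls) and of the middle Cycs probe (-0.19 and -0.22), and the brighter controls that of Xiap (-0.012). On slide row 1 alone, with 1 irradiated array whose spread is taken from the others, 0 member probes were lower by limma (2 at an unadjusted p under 0.05), 8 pathway genes were higher and 5 lower, and 6043 probes were higher and 5968 lower in all. With the row as a block, which gives the same changes from that 1 irradiated array, 1 member probe and 11 pathway genes were lower. The middle Cycs probe was -0.017 under both. The cause was not tested. One probe per gene gave 2 lower member probes, since fewer were tested, and no filter on dim probes also gave 2, the downstream probes of Diablo (adjusted p = 0.0524) and Birc3 (0.0541) missing the threshold. Leaving out each array gave 1 to 2 member probes higher and 2 to 5 lower, and 11 to 13 pathway genes higher and 11 to 19 lower. Median scaling and normexp background correction changed no member call, and quantile normalization added the upstream Cycs probe (adjusted p = 0.0202). A filter on all 6 arrays and the authors' deposited table also changed none, but they are hardly separate checks. The filter left the members' values as they were. The deposited table holds the same scaled signals less each probe's median, and its Birc2 change was 0.579 against 0.582. Deviations of same-numbered arrays had correlations of 0.070, 0.109 and -0.0083, beside -0.140 to 0.077 for arrays with different numbers. Whether the numbers pair arrays was not tested. The replicate block took the call from the downstream Diablo probe (adjusted p = 0.0568). It gave 1 member probe higher and 3 lower, and 9933 probes higher and 11294 lower in all.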
